A study of Mus musculus with 12 samples.

Results

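The nuclear-encoded subunits of the respiratory chain and ATP synthase were taken as the genes on autosomes whose symbol in the expression table began with Nduf followed by a, b, c, s or v and a digit, was Sdha to Sdhd or Cyc1, or began with Uqcr, Cox4 to Cox8 or Atp5. Of the symbols of this form, 3 lay on the X chromosome (Ndufa1, Ndufb11 and Cox7b) and 13 carried the suffix of a pseudogene, which left 86 members among the 55141 genes of the count table. They were ordered by complex, with 38 members in complex I (Nduf), 4 in complex II (Sdh), 9 in complex III (Uqcr and Cyc1), 18 in complex IV (Cox) and 17 in complex V (Atp5). The annotation listed 82 of them as protein coding and 4 as processed pseudogenes (Ndufs6b, Ndufa11b, Ndufb4c and Cox6c2). The RNA came from gastruloids, aggregates of mouse embryonic stem cells (129/SVEV) that elongate and form embryonic cell types in culture after a pulse of the Wnt agonist CHIR99021, which all groups received. Gastruloids were embedded in a dextran hydrogel of 1.0 or 1.5 mM either 72 h or 96 h after seeding and were all collected at 120 h, so that 72 h embedding also meant a longer stay in the gel. The 4 groups had 3 libraries each, every library pooled about 30 gastruloids released with dextranase, and polyadenylated RNA was sequenced. The comparisons asked how the time of embedding and the gel concentration, which sets its stiffness, bore on the levels of these transcripts.

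Complex I passes electrons from NADH to ubiquinone, complex II (succinate dehydrogenase) does so from succinate, complex III passes them on to cytochrome c and complex IV to oxygen. Complexes I, III and IV pump protons across the inner mitochondrial membrane, and complex V uses the gradient to make ATP. Complex II is encoded wholly in the nucleus, while the other 4 also hold subunits encoded by mitochondrial DNA. Many nuclear-encoded members are small accessory subunits of the membrane arms, and early embryonic cells rely on glycolysis as well as on respiration.

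Promoters of respiratory genes are known for sites of the factors NRF-1, GABP (an ETS factor) and YY1, so 3 short motifs were searched on both strands from 250 bases before to 50 bases after the start of transcription in the RefSeq promoter table (GRCm38.p6). The NRF-1 letters GCGCATGCG stood in 8 of the 65 members with an entry (12.3%) and in 1.95% of all 27025 genes of the table. The ETS letters CCGGAAG stood in 17 members (26.2%) and in 9.93% of all genes, and the YY1 letters AAGATGGCG in 7 members (10.8%) and in 1.64%. No match overlapped one of another motif. At least 1 of the 3 motifs was present in 27 members (41.5%) against 12.7% of all genes. The promoters below, from 120 bases before to 30 bases after the start on the strand of the gene, belong to members whose levels are described further on, and capitals mark matches on either strand. Ndufa11 (chr17:56717642-56717791, plus strand), Uqcr11 (chr10:80406792-80406941, minus strand) and Cox6a1 (chr5:115348929-115349078, minus strand) were lower after 72 h embedding in 1.5 mM gels and hold motifs. Atp5g1 (chr11:96075602-96075751, minus strand), also lower, and Atp5b (chr10:128083187-128083336, plus strand), the member with the highest level, hold none of these letters in the window.
Ndufa11: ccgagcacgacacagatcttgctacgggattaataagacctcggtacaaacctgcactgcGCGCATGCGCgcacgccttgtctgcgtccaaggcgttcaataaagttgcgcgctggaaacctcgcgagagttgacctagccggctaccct
Uqcr11: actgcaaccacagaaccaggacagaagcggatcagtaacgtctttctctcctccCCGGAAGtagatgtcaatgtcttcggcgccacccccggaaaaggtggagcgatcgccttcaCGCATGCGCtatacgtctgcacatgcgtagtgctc
Cox6a1: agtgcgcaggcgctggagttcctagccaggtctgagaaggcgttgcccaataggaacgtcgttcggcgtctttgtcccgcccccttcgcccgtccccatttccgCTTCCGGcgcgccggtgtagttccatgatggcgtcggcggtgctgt
Atp5g1: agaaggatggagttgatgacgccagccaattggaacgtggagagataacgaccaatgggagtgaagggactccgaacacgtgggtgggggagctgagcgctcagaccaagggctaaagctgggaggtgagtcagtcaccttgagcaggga
Atp5b: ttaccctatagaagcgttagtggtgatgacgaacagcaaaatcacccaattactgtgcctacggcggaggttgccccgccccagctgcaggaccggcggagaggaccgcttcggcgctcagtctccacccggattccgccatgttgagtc

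Most members were abundant transcripts. The mean FPKM (fragments per kilobase of transcript, scaled to library size, a level comparable between genes) over the 12 libraries was at least 50 for 62 members. Atp5b, the catalytic beta subunit of ATP synthase, was highest with 452 FPKM, and the median of complex V was 150 FPKM. Complex IV had a median of 134 FPKM and was led by Cox4i1 with 334 FPKM. Complex III had a median of 91.2 FPKM and a highest value of 222 FPKM for Uqcrh, its hinge subunit. Complex II ranged from 57.1 FPKM for Sdha to 79.8 FPKM for Sdhd, and complex I had a median of 68.6 FPKM with Ndufa4 at 233 FPKM. Ndufa4 is counted here by its symbol, although its product is now known as a part of complex IV. Ndufs1 and Ndufa4l2 were listed at 0 FPKM in every library despite mean levels of 94.7 and 7.76 CPM (counts scaled to library size), so their FPKM values were not used. Ndufs5, Ndufb4 and Atp5l, with 5.04, 6.78 and 14.3 CPM, are known to have near-identical copies elsewhere in the genome, and their counts are uncertain. Of the 7 members that passed the count filter in no comparison, 4 were the processed pseudogenes, Cox8b and Cox8c had no count in any library, and Cox7b2 had a mean of 0.25 counts.

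The libraries held 23011791 to 25149780 counts after 72 h embedding and 25398824 to 27609422 counts after 96 h embedding. Genes of the mitochondrial genome took 1.68% to 2.60% of the counts after 72 h and 2.37% to 3.02% after 96 h. The transcript CT010467.1 took 6.12% of the counts in replicate 1 of the 72 h, 1.5 mM group and 4.21% in replicate 2 of the 96 h, 1.5 mM group, and 0.207% to 2.67% in the other libraries. The part of depth and of these shares in the results was not tested. The labelled tissue was checked against markers of gastruloid cell types, and every list was detected, primitive blood at a summed level of at most 1.06 CPM and with Hbb-y at 0 counts in every library.

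Summed by complex, in CPM after TMM scaling without mitochondrial genes, the members differed between embedding times by at most 13.2%. Complex I summed to 2348, 2954 and 2632 CPM after 72 h and 2697, 3149 and 2702 CPM after 96 h in 1.0 mM gels. In the stiffer gels it summed to 2611, 2684 and 2542 CPM after 72 h and 2699, 3045 and 2952 CPM after 96 h. Its groups thus overlapped in the softer gel and were apart in the stiffer one. By replicate number, which was not taken as pairing, each 72 h sum was below the 96 h sum in both gels. Complex IV behaved alike, with 1324, 1764 and 1511 CPM against 1570, 1839 and 1539 CPM in 1.0 mM gels and 1493, 1456 and 1336 CPM against 1520, 1768 and 1648 CPM in 1.5 mM gels. The 72 h mean in 1.5 mM gels was 1428 ± 82.2 CPM (SD, n = 3) and the 96 h mean was 1645 ± 124 CPM, a difference of -13.2%, the widest of the 5 complexes. For complex I it was -9.89%, for complex III -8.05% and for complex V -3.35%. The groups of complexes III and V overlapped in these gels. Their 72 h libraries reached 1152 and 4274 CPM, and their 96 h libraries began at 1120 and 4013.5 CPM. Complex II was at 618 ± 16.7 CPM after 72 h and 614 ± 40.7 CPM after 96 h, a difference of 0.727%. In 1.0 mM gels the same differences were -7.20%, -0.888%, -5.92%, -7.04% and -1.73% for complexes I to V, each within groups that overlapped.

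**Figure D1:**
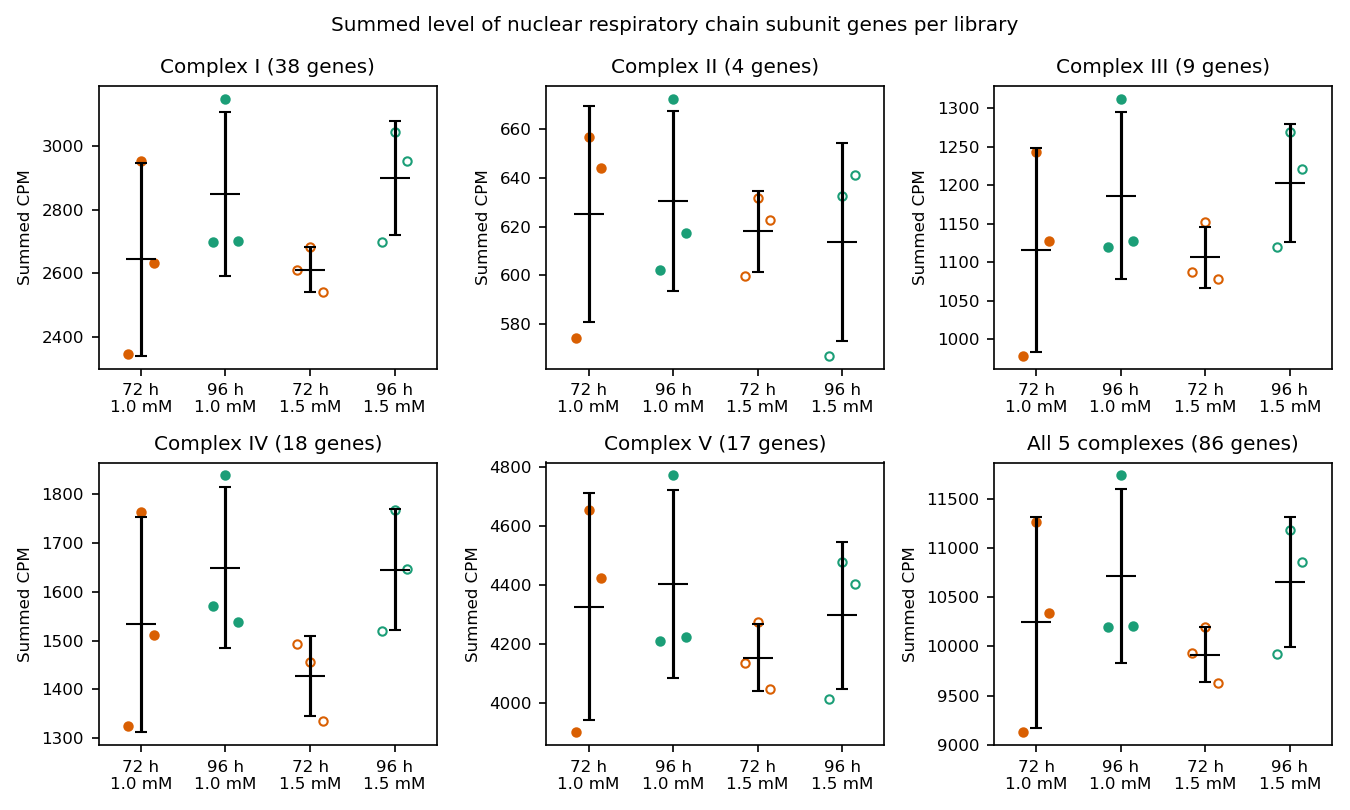
Summed level of the members of each complex in CPM (vertical axis, not starting at 0) in each of the 12 libraries, by group, with 1 point per library and the mean and SD of 3 libraries as bars. In 1.5 mM gels the 72 h libraries of complexes I and IV lie below all 96 h libraries, while those of complex II, at 600 to 632 CPM, lie among the 96 h values. In complexes III and V the 72 h and 96 h libraries overlap there as well.

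In 1.5 mM gels, 22 of the 78 members tested were lower after 72 h than after 96 h embedding and none was higher, at an adjusted p below 0.05 (edgeR quasi-likelihood test, Benjamini-Hochberg over 15683 genes). Of all genes tested, 8.98% were lower and 10.4% were higher. The falls ran from 14.7% to 25.4%, so that no member passed the rule of the study, which also asks for a change of more than 1 on the log2 scale and which 1.61% of all genes passed as higher and 1.57% as lower. The median log2 difference of the members was -0.17, against -0.01 over all genes, and 63 of the 78 values were negative, against 50.7% of all genes. In these bulk samples fewer cells of a type and less RNA per cell cannot be told apart, and p-values measure only the spread between the 3 libraries of a group, which are described as biological replicates. The libraries of both groups did not overlap for 35 members that were lower, the 22 called ones among them, and for 2 that were higher, while 20% of all genes were lower without overlap. The share of all genes that were higher without overlap was not counted in either gel. The lower members came from complex I (8 of 35 tested), complex III (3 of 9), complex IV (4 of 13) and complex V (7 of 17), and none of the 4 of complex II was called. The medians by complex were -0.15, -0.03, -0.11, -0.20 and -0.23 for complexes I to V.

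**Figure D2:**
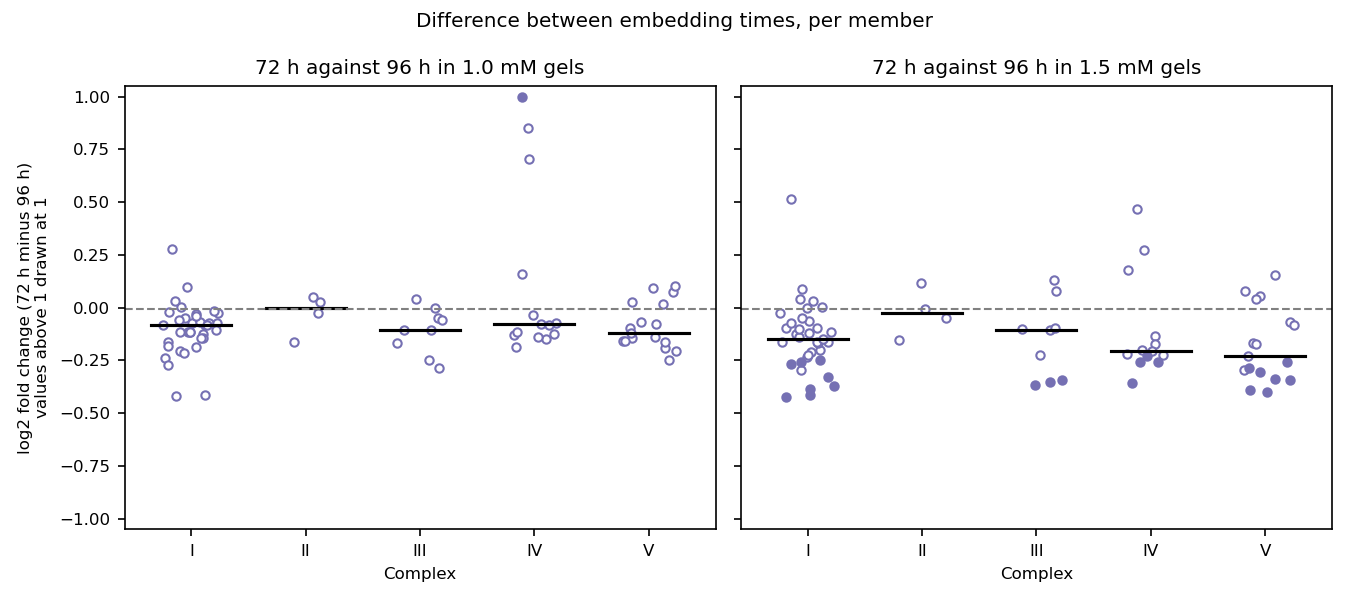
Log2 difference of 72 h against 96 h embedding for each tested member (1 point each), by complex, in each gel. Filled points are called members, bars are medians of a complex, and Cox6a2, at 3.13 in 1.0 mM gels, is drawn at 1. The called members in 1.5 mM gels lie between -0.42 and -0.23, and complex II has none.

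Ndufa11, an accessory subunit in the membrane arm of complex I, had the largest fall. Its level was 64.1, 68.2 and 66.3 CPM after 72 h and 81.1, 89.8 and 94.4 CPM after 96 h in 1.5 mM gels. All 72 h libraries lay below all 96 h libraries, and the log2 difference was -0.42 ± 0.07 (SE, adjusted p = 0.00626). Reads of Ndufa11 share their locus with Vmac on the other strand, and the strand setting of the counting is not given in the sources used here. Ndufa5, an accessory subunit of the peripheral arm, stood at 35.3, 36.4 and 38.0 CPM after 72 h and 44.7, 51.6 and 49.2 CPM after 96 h. These groups did not overlap either, and the difference was -0.41 ± 0.07 (adjusted p = 0.00753). Atp5j2, subunit f of the membrane part of ATP synthase, was measured at 154, 137 and 122 CPM after 72 h and 166, 194 and 183 CPM after 96 h. The difference was -0.40 ± 0.09 (adjusted p = 0.0179), with the nearest libraries 154 and 166 CPM. Atp5g1, 1 of the 3 genes for subunit c of the rotor ring, had 84.0, 78.2 and 75.9 CPM after 72 h and 98.3, 106 and 107 CPM after 96 h. Here too all 72 h libraries were lower, by -0.39 ± 0.07 on the log2 scale (adjusted p = 0.00677).

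The other 18 called members were smaller in their change, from -0.38 for Ndufc1 to -0.23 for Cox6c. In complex I they were Ndufc1, Ndufa3, Ndufa2, Ndufb6, Ndufs6 and Ndufa4. In complex III they were Uqcrq, Uqcr10 and Uqcr11, all small accessory subunits. Uqcr11, for example, had 76.7, 73.6 and 64.6 CPM after 72 h and 85.0, 97.7 and 88.6 CPM after 96 h, with no overlap and a difference of -0.34 ± 0.08 (adjusted p = 0.0229). In complex IV the called members were Cox7c, Cox6a1, Cox5b and Cox6c. In complex V they were Atp5e (the epsilon subunit), Atp5o of the peripheral stalk, and Atp5mpl, Atp5md and Atp5j. Atp5j shares its locus with Gabpa, Cox6c with Vps13b and Ndufb6 with Smim27 on the other strand, and Atp5o with another annotated gene on its own strand. Ndufa2, Ndufs6, Atp5md and Ndufa3 overlap neighbours on the other strand by 4 to 66 bases. Part of the reads of these members is therefore uncertain.

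The number called in 1.5 mM gels moved with single libraries. It was 32 without replicate 1 of the 72 h group, 6 without its replicate 2 and 4 without its replicate 3, and 30, 3 and 3 without replicates 1, 2 and 3 of the 96 h group. The number of all genes called moved with it, from 3033 to 4102, 1614 and 1342 without the 72 h replicates and to 2542, 1181 and 1224 without the 96 h replicates. Without both libraries rich in CT010467.1, 16 members and 2990 of 15831 genes were called. Atp5g1 and Ndufa5 were called in all 18 alternative fits, Ndufa11 in 16 and Ndufa3 in 14, and the others in 9 to 12.

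**Figure D3:**
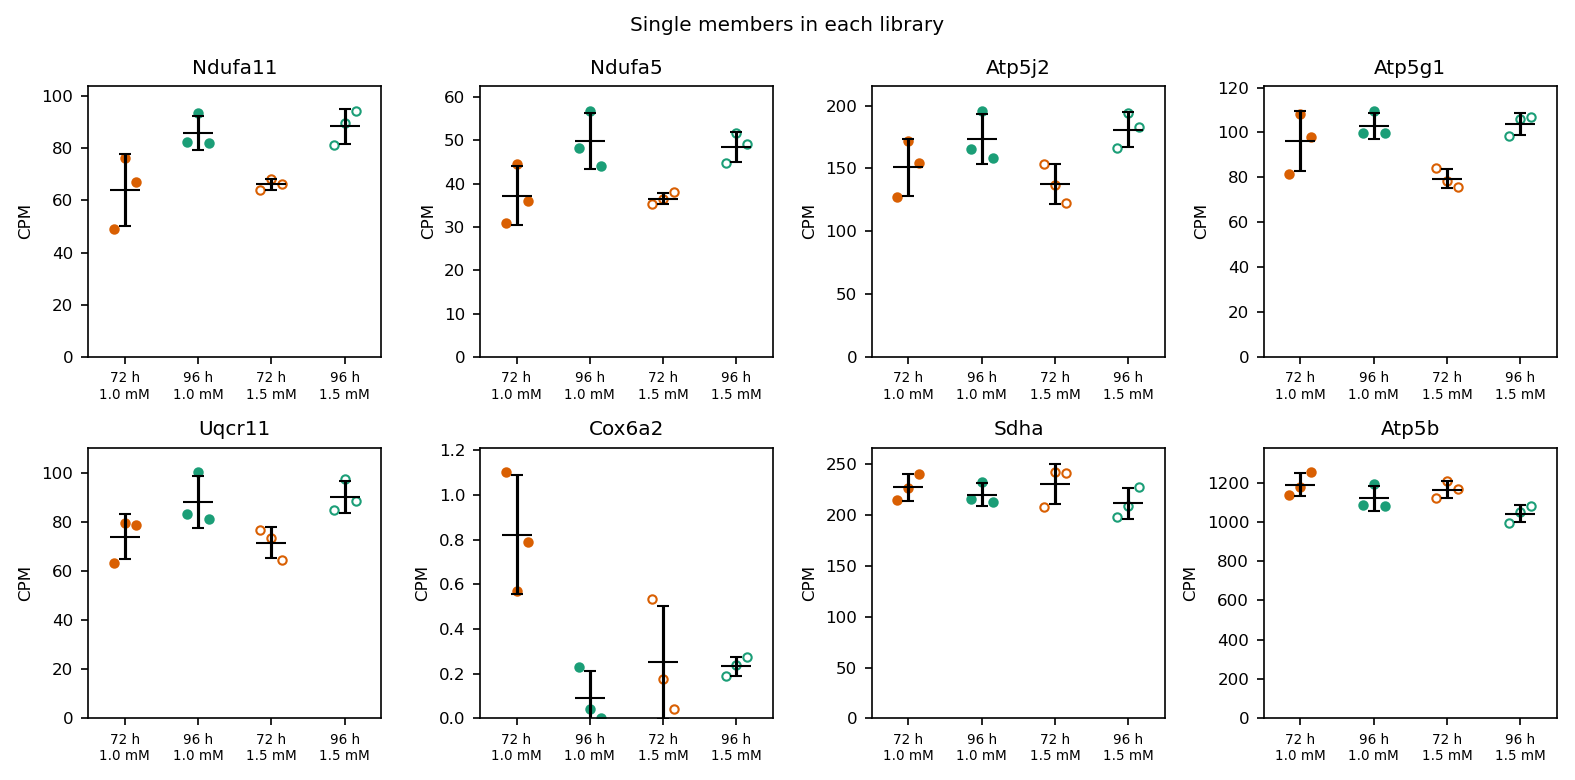
CPM of 8 members in each library (vertical axis, starting at 0), by group of embedding time and gel concentration, with the mean and SD of 3 libraries as bars. For Ndufa11 the 72 h libraries lie at 49.1 to 76.1 CPM and the 96 h libraries at 81.1 to 94.4 CPM.

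Other members did not pass the test in 1.5 mM gels, among them Ndufs7, an iron-sulphur subunit of complex I, with -0.30 ± 0.10 (adjusted p = 0.0615), and Cyc1, cytochrome c1 of complex III, with -0.22 ± 0.07 (adjusted p = 0.0613). Atp5b had 1122, 1207 and 1165 CPM after 72 h and 995, 1050 and 1083 CPM after 96 h in 1.5 mM gels. Its 72 h libraries were all higher, but the difference of 0.15 ± 0.06 did not pass (adjusted p = 0.114). Sdha, the flavoprotein of complex II, had 208, 242 and 241 CPM against 198, 209 and 228 CPM, with overlap and a difference of 0.12 ± 0.08 (adjusted p = 0.305). Sdhb, its iron-sulphur subunit, had 91.4, 100 and 89.1 CPM against 90.1, 110 and 111 CPM, and its difference was -0.16 ± 0.09 (adjusted p = 0.251). The membrane anchors Sdhc and Sdhd differed by -0.00 ± 0.06 and -0.05 ± 0.07 (adjusted p = 0.962 and 0.658), with 161 to 173 CPM for Sdhc and 118 to 140 CPM for Sdhd over these 6 libraries. Uqcrh stood at 156, 169 and 155 CPM against 164, 184 and 166 CPM, overlapping groups with a difference of -0.10 ± 0.07 (adjusted p = 0.293).

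In 1.0 mM gels, 1 of the 79 members tested was higher after 72 h embedding and none was lower, where 5.97% of all 15763 genes were higher and 3.27% lower. The same member passed the rule of the study, which 2.61% of all genes passed as higher and 1.69% as lower. It was Cox6a2, the form of subunit VIa of complex IV known from heart and skeletal muscle, with 26, 14 and 19 counts after 72 h and 6, 1 and 0 counts after 96 h. Cox6a2 passed the count filter only through the 72 h group, where it is high, and was not tested under the stricter filter, so the call is no support for a change. The fitted log2 difference was 3.13 ± 0.68 (adjusted p = 0.0148). It was 2.82 without replicate 2 of the 96 h group and 2.54 without its replicate 3, where the call was lost (adjusted p = 0.0701 and 0.0534), and 5.09 without its replicate 1. After embedding in 1.5 mM gels Cox6a2 had 12, 4 and 1 counts after 72 h and 5, 6 and 7 after 96 h, too few for the filter. Cardiac markers moved with it in 1.0 mM gels. Of the 10 on the list, 9 were called higher after 72 h embedding, and all 10 values were above 0. Their summed level was 244 to 567 CPM after 72 h against 33.7 to 112 CPM after 96 h. In 1.5 mM gels 3 of 10 were called higher, where 10.4% of all genes were, and all 10 values were above 0. The summed level there was 191 to 429 CPM against 107 to 178 CPM. The interaction of embedding time and gel called 0 of the 10. The part of cardiac cells in the level of Cox6a2 was not tested.

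None of the other members passed the test in 1.0 mM gels. With a replicate block, which called 2122 genes instead of 1457, some members were called lower as well, as given at the end. The median over the 79 was -0.08, against -0.01 over all genes, 63 values were negative and 16 positive, and 6 members had an unadjusted p below 0.05. Of all 15763 genes, 51.1% had negative values and 3602 had an unadjusted p below 0.05. All 22 members called in 1.5 mM gels had negative values here. Ndufa11 had 49.1, 76.1 and 67.1 CPM after 72 h and 82.5, 93.3 and 82.0 CPM after 96 h, without overlap, and its difference of -0.42 ± 0.14 did not pass (adjusted p = 0.0857). Ndufa5 had 31.0, 44.5 and 36.0 CPM against 48.3, 56.8 and 44.1 CPM, where the highest 72 h library lay above the lowest 96 h library, and a difference of -0.41 ± 0.14 (adjusted p = 0.091). Each of both genes was called in 5 of 17 alternative fits. Only Ndufa11 and Uqcr11 were lower without overlap in 1.0 mM gels, where 13.8% of all genes were, and both were so in 1.5 mM gels as well. As many members, 2, were higher without overlap in 1.0 mM gels. Without replicate 1 of the 72 h group, whose sums were lowest, the median of the members was 0.00, and without its replicate 2, whose sums were highest, it was -0.18. In the 96 h group too, replicate 1 had the lowest sum over all members and replicate 2 the highest, at 10202 and 11743 CPM. Leaving out these 96 h libraries gave medians of -0.14 and -0.01. With a replicate block the median was -0.10, 63 values were negative and 16 members had an unadjusted p below 0.05. In that fit 4255 of all 15763 genes had an unadjusted p below 0.05.

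With both gels in a single fit and the gel as a covariate, 22 members were lower after 72 h embedding and 1 was higher of the 79 tested, while 14.8% of all 16388 genes were lower and 16.2% higher. The median was -0.12, against -0.01 over all genes. Of the lower members, 16 were also called in 1.5 mM gels alone. The others were Ndufs7, Ndufa13, Ndufb7 and Ndufa10 of complex I and Atp5d and Atp5h of complex V. Ndufa11 differed by -0.42 ± 0.08 (adjusted p = 0.00164) and Ndufa5 by -0.41 ± 0.08 (adjusted p = 0.00174). The higher member was Cox7a1, the heart and muscle form of subunit VIIa, with 0.49 ± 0.17 (adjusted p = 0.043). Leaving out single libraries gave 8 to 40 called members, and 5 (Ndufa11, Ndufa5, Uqcr11, Atp5j2 and Cox7a1) were left without both libraries rich in CT010467.1. The lowest count came without replicate 3 of the 96 h, 1.5 mM group, the highest without replicate 2 of the 72 h, 1.0 mM group, and 9 without replicate 1 of that group. Over all genes, 3944 to 5671 were called with 1 library left out, against 5092 in the main fit. Without both libraries rich in CT010467.1, 3681 genes were called.

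The gel concentration at a fixed embedding time left no member past the test. At 72 h, 0 of 79 members and 0% of 15563 genes were called by edgeR. At an unadjusted p below 0.05 there were 4 members (Ndufb10, Uqcrb, Cox6a2 and Atp5g1) and 1074 genes, and DESeq2 called 12 genes, none of them a member. At 96 h, 0 of 78 members and 0% of 15861 genes were called, with 0 members and 1578 genes at an unadjusted p below 0.05 and 87 genes, no member among them, called by DESeq2. The median of the members was -0.05 at 72 h and 0.01 at 96 h, and neither sign was stable. Leaving out 1 library moved it from -0.11 (without replicate 1 of the 72 h, 1.0 mM group) to 0.04 (without its replicate 2) at 72 h, and from -0.04 (without replicate 2 of the 96 h, 1.5 mM group) to 0.09 (without replicate 2 of the 96 h, 1.0 mM group) at 96 h. Across both embedding times no member was called, where 0.0122% of all genes were higher and 0.0183% lower in 1.5 mM gels, and 2 members had an unadjusted p below 0.05. The interaction of embedding time and gel called 0 of 79 members and 0% of 16388 genes (edgeR), with 2 members (Cox6a2 and Atp5g1) and 708 genes at an unadjusted p below 0.05, and 2 genes, no member among them, by DESeq2. It was therefore not shown that the embedding time acted differently on any member in the 2 gels, even for Atp5g1, whose difference was -0.10 ± 0.10 in the softer and -0.39 ± 0.07 in the stiffer gels (interaction -0.29 ± 0.13, adjusted p = 0.953).

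Subunit c of ATP synthase is encoded by 3 genes, Atp5g1, Atp5g2 and Atp5g3, whose mature protein is known to be the same while the coding bases differ. The last 120 coding bases are shown from GENCODE M21 on mm10 because they let reads of the 3 genes be told apart, with the 30 positions that differ in capitals. They come from Atp5g1 (chr11:96073107-96073530), Atp5g2 (chr15:102663017-102665061) and Atp5g3 (chr2:73908596-73909191), all on the minus strand, and the spans include introns. Over the last 225 coding bases Atp5g1 was 84.9% identical to Atp5g2 and 80% to Atp5g3, and Atp5g2 was 78.7% identical to Atp5g3.
Atp5g1: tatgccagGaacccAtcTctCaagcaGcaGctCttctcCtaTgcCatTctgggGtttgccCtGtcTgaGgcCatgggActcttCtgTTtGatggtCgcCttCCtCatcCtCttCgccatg
Atp5g2: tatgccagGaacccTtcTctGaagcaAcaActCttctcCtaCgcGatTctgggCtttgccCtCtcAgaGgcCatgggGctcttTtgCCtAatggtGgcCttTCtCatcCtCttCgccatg
Atp5g3: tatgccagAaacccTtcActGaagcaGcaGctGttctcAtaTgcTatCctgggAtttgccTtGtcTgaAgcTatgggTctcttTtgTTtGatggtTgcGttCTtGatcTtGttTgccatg

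Per length, Atp5g3 was the highest of the 3 with 388 FPKM, followed by Atp5g2 with 95.5 and Atp5g1 with 85.3 FPKM. Atp5g2 had 98.9, 89.0 and 82.3 CPM after 72 h and 79.3, 90.6 and 85.0 CPM after 96 h in 1.5 mM gels, in overlapping groups that differed by 0.08 ± 0.08 (adjusted p = 0.544). Atp5g3 had 350, 351 and 333 CPM against 353, 406 and 399 CPM, and its difference was -0.17 ± 0.07 (adjusted p = 0.107). Of the 3 genes, Atp5g1 alone was called lower. The other 2 had adjusted p-values above the threshold, and the differences between the 3 genes' changes were not tested.

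In the isoform families of complex IV the ubiquitous form was the higher one throughout. Cox4i1 had 334 FPKM and Cox4i2, known from lung and as a hypoxia-responsive form, had 5.29 FPKM. Cox6a1 had 160 and Cox6a2 0.388 FPKM, and Cox6b1 had 201 and Cox6b2, the testis form, 24.4 FPKM. Cox7a2 had 135, Cox7a2l 82.8 and Cox7a1 4.18 FPKM, while Cox8a had 242 FPKM. Of the ubiquitous forms, Cox6a1 fell in 1.5 mM gels, with 117, 107 and 98.9 CPM after 72 h against 119, 136 and 130 CPM after 96 h and a difference of -0.26 ± 0.08 (adjusted p = 0.0488). The values of Cox4i1 (-0.20 ± 0.07, adjusted p = 0.0705), Cox6b1 (-0.17 ± 0.07, adjusted p = 0.121), Cox7a2 (-0.23 ± 0.09, adjusted p = 0.0974), Cox7a2l (-0.22 ± 0.08, adjusted p = 0.0782) and Cox8a (-0.20 ± 0.08, adjusted p = 0.103) did not pass. Cox4i2, Cox6b2 and Cox7a1 had values above 0 in both gels, and none of them passed pairwise. Cox7a1 had 3.31, 2.98 and 2.79 CPM after 72 h and 1.99, 1.65 and 1.95 CPM after 96 h in 1.0 mM gels, without overlap (0.70 ± 0.21, adjusted p = 0.0662). The stiffer gels gave 2.93, 2.32 and 1.66 CPM against 1.84, 2.41 and 1.44 CPM, with overlap. Cox4i2 had 9.71, 7.27 and 3.62 CPM against 5.02, 3.13 and 3.31 CPM in 1.0 mM gels (0.85 ± 0.32, adjusted p = 0.133), and Cox6b2 differed by 0.16 ± 0.16 there (adjusted p = 0.585). Ndufa4 fell in 1.5 mM gels from 190, 210 and 198 CPM after 96 h to 177, 175 and 154 CPM after 72 h (-0.25 ± 0.07, adjusted p = 0.0368). Its hypoxia-responsive relative Ndufa4l2 had 13.9, 6.01 and 6.53 CPM after 72 h and 8.25, 7.99 and 2.22 CPM after 96 h, a difference of 0.51 ± 0.46 (adjusted p = 0.458).

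**Figure D4:**
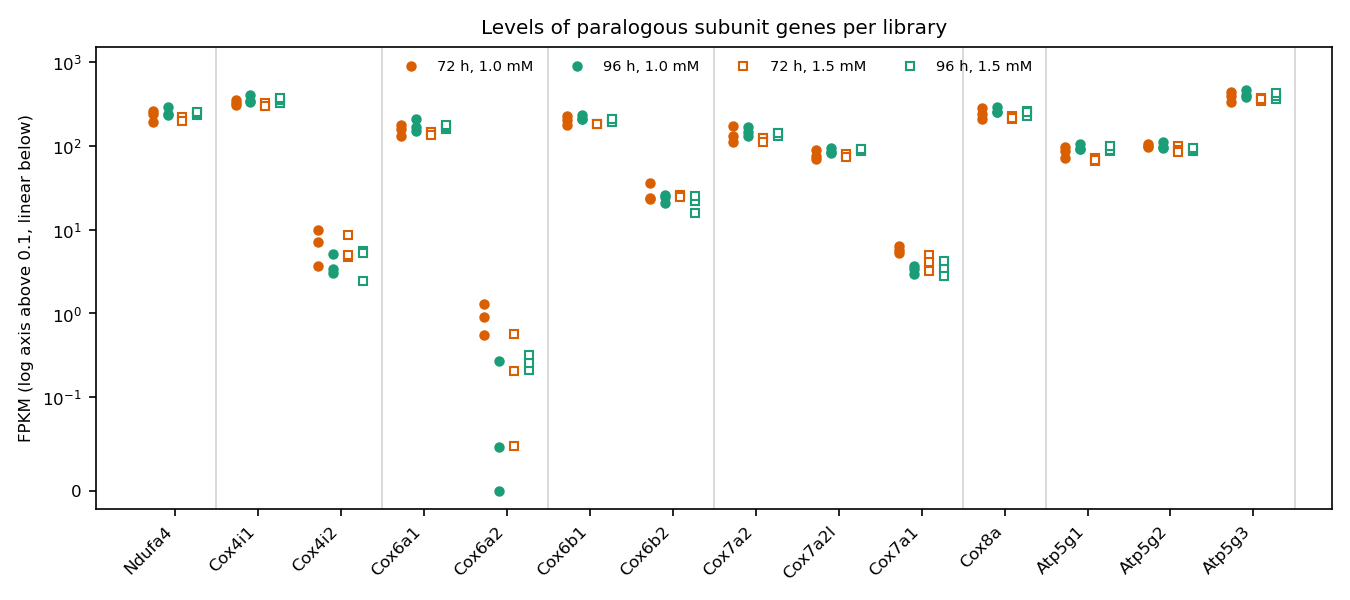
FPKM (vertical axis, logarithmic above 0.1 and linear below) of members of isoform families in each of the 12 libraries, 1 point per library, coloured by group. Cox4i1, with a mean of 334 FPKM, lies far above Cox4i2 with 5.29 FPKM, and Cox6a2, with a mean of 0.388 FPKM, is the lowest. Ndufa4l2, Cox8b and Cox8c, listed at 0 FPKM, are not drawn.

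Short transcripts as a whole were lower after 72 h embedding in 1.5 mM gels, and the members are short. By the median length of a gene's protein-coding transcripts, the median log2 difference of all genes was -0.19 under 1000 nucleotides, -0.09 from 1000 to under 2000, 0.02 from 2000 to under 4000 and 0.13 at 4000 or more. The members had -0.21 (53 genes), -0.08 (19 genes) and -0.06 (6 genes) in the first 3 of these classes and none in the last. Of the 22 called members, 21 were under 1000 nucleotides long, where 14.2% of all genes were called lower, and the other was Atp5g1. In 1.0 mM gels the values were -0.09, -0.05, 0.00 and 0.06 for all genes and -0.12, -0.05 and -0.05 for the members. Across genes, which are no independent replicates, Spearman's rho of length and difference was 0.30 over all genes and 0.40 over the members in 1.5 mM gels, and 0.18 and 0.26 in 1.0 mM gels. The values share libraries and depth, and the part of length in the members' change was not tested.

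**Figure D5:**
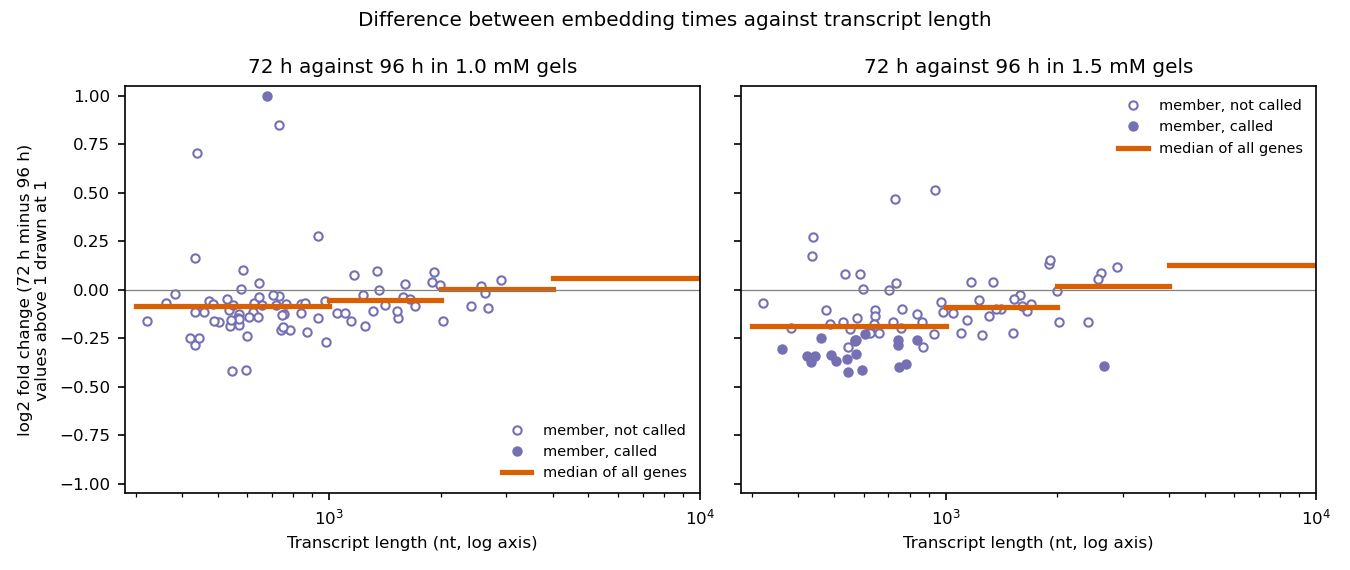
Log2 difference of 72 h against 96 h embedding (vertical axis) against transcript length in nucleotides (log axis) for the tested members, with called members filled, Cox6a2 drawn at 1 in 1.0 mM gels, and horizontal bars for the median of all genes in each length class. Of the 22 members called in 1.5 mM gels, 21 lie under 1000 nucleotides, and the median of all genes rises from -0.19 in that class to 0.13 at 4000 or more.

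Other genes of the pathway were described by lists. In 1.5 mM gels, to be read against the 8.98% of all genes called lower and the 14.2% of those under 1000 nucleotides, several lists held lower genes. Of 78 mitochondrial ribosomal protein genes, 18 fell and none rose, with a median of -0.16. Of 90 cytosolic ribosomal protein genes, 41 fell and none rose, with a median of -0.27, and in 1.0 mM gels 2 fell. Of 48 assembly factors, 10 fell and 3 rose in 1.5 mM gels. The largest fall was that of Sco2, a copper chaperone of complex IV, with -0.89 (adjusted p = 0.0251), and Sdhaf1, which serves the iron-sulphur cluster of complex II, differed by -0.46 (adjusted p = 0.0179). Nubpl, an iron-sulphur factor of complex I, rose by 0.47 (adjusted p = 0.0112), Taco1, a translational activator of mt-Co1, by 0.47 (adjusted p = 0.0435) and Coa5 by 0.28 (adjusted p = 0.0191). None of the 48 passed in 1.0 mM gels. The 13 genes of the tricarboxylic acid cycle had medians of -0.06 and -0.03 in 1.0 and 1.5 mM gels, and none passed the test. Of the subunits that the symbol rule leaves out, Ndufa1, Cox7b and Ndufab1 fell in 1.5 mM gels (adjusted p = 0.0195, 0.0203 and 0.0435), and Ndufb11 had -0.13 (adjusted p = 0.305). Cytochrome c (Cycs) had -0.11 (adjusted p = 0.352).

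Among 11 regulators tested, Esrra, a nuclear receptor of mitochondrial genes, fell in 1.5 mM gels by 0.27 on the log2 scale (adjusted p = 0.0432), while Nrf1 had -0.02, Gabpa 0.19 (adjusted p = 0.0821), Yy1 0.06 and Tfam -0.08. A single lower gene among 11 is near the share of all genes called lower. Of the 18 members called lower that have a promoter entry, 10 held at least 1 of the 3 motifs (55.6%), as did 17 of the 45 other tested members (37.8%). The coactivator Ppargc1a had 0.0104 FPKM and did not pass the count filter. Of 9 hypoxia response genes, Slc2a1, a glucose transporter, rose in 1.0 mM gels by 0.45 (adjusted p = 0.0299), and none passed in 1.5 mM gels, where the median was 0.22.

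The subunits encoded by mitochondrial DNA were examined in a fit that kept mitochondrial genes, with 12 of the 13 in the table. In 1.5 mM gels this fit called 1405 of 15697 genes lower after 72 h embedding. All 9 subunits tested there had negative values. Of these, 5 were called lower. They were mt-Nd1 (-0.51), mt-Nd2 (-0.44), mt-Nd4 (-0.61) and mt-Nd5 (-0.41) of complex I and mt-Cytb (-0.57) of complex III, with adjusted p-values of 0.0204, 0.0479, 0.0036, 0.0263 and 0.0055. The catalytic subunit mt-Co1 of complex IV had -0.24 (adjusted p = 0.137). In 1.0 mM gels the median of 10 was -0.38, 9 values were negative and none passed. The library preparation selected polyadenylated RNA, and the polyadenylation of mitochondrial transcripts was not measured.

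Cell type markers moved with the embedding time beside the members. In the counts below, rose and fell mean called. In 1.0 mM gels 5.97% of all genes were called higher and 3.27% lower, and in 1.5 mM gels 10.4% and 8.98%. All 5 pluripotent or germ cell markers tested fell in both gels, by values from -2.71 to -1.45 in 1.0 mM gels and from -2.48 to -1.14 in the stiffer ones, and their summed level was 23.1 to 31.1 CPM after 72 h against 74.6 to 130 CPM after 96 h. All 4 somite markers fell in 1.0 mM gels and 3 in 1.5 mM gels, where all 4 values were negative. Of 4 neural markers 2 rose in the softer and 1 in the stiffer gels, and of 6 tail bud and presomitic markers 1 rose in each gel while 3 and 1 fell. Of 4 endothelial markers 1 rose in 1.0 mM gels and none passed in 1.5 mM gels, and of 4 endoderm markers 1 rose in each gel and 1 fell in 1.5 mM gels. Of the primitive blood markers, Gata1 alone was tested in 1.5 mM gels, with 0.610 ± 0.222 CPM (SD, n = 3) after 72 h and 0.154 ± 0.0737 CPM after 96 h, and it too passed the filter through the group where it is high. The part of these cell types in the members' levels was not tested.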

How the data were processed

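RNA of pooled gastruloids, 3 libraries in each of 4 groups, was measured by polyA-selected, stranded, paired-end RNA sequencing. Per the submitters' processing notes and the methods, the authors trimmed reads with cutadapt 4.4, aligned them to mm10 with STAR 2.7.10b and a custom Ensembl annotation, and deposited gene counts as read counts per gene without normalization and FPKM values from Cufflinks 2.2.1.3. The counting's strand setting is not given in the sources used here. The authors' DESeq2 summary (log2 fold changes, adjusted p-values and calls) was not used.

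Counts were tested with edgeR 4.0.16 in R 4.3.3 (TMM, filterByExpr with minimum count 10 and minimum total 15, quasi-likelihood test, Benjamini-Hochberg over all genes, called below 0.05) without 36 mitochondrial genes, and FPKM served for levels between genes. Differences are log2 of 72 h over 96 h or of 1.5 mM over 1.0 mM. Pairwise fits used the 6 libraries compared. With 23011791 to 27609422 counts per library, the spread between libraries exceeded sampling noise in all replicate pairs. Alternatives were DESeq2 1.42.0, limma-voom and limma on log2 FPKM (limma 3.58.1, pseudocounts 1 and 0.1), other scalings and filters, the replicate block, and leaving out libraries. The scripts were tested on simulated data. The members and lists were chosen with earlier results of these data known. Members named by rule were called members (beyond 12, the 4 largest changes with a mean of at least 100 counts), the highest FPKM of each complex, isoform families and the Sdh genes, and others named were chosen after their values were seen. 1 member is not reported by name here.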

Additional observations from a re-analysis of the deposited data

Results flagged for a closer look

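Sdhd, a membrane anchor of complex II, was at 144 CPM in replicate 2 of the 72 h, 1.0 mM group and at 123 to 129 CPM in the other 5 libraries embedded at 72 h, a gap large for a group of 6. It was the only such library among 58 groups of 6 examined, and chance alone marks about 1 in 20, while groups of 3 were not examined. Counts were also found for symbols left out of the members. Ndufb1-ps, annotated as a long non-coding RNA from a bidirectional promoter, had a mean of 47.2 CPM, and the processed pseudogenes Ndufa12-ps and Ndufs5-ps had 19.7 and 13.98 CPM. All 3 had counts in every library, and the part of reads shared with the parent genes was not tested.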

How the results depend on the processing

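In 1.0 mM gels (1 member called), 3 were called by DESeq2, 5 without a low-count filter, 0 with the stricter filter, 0 by limma on FPKM with either pseudocount, 3 with all 12 libraries in a single fit and 0 at an adjusted p below 0.01, and 0 to 4 when 1 library was left out (0 without replicate 2 or 3 of the 96 h group, 4 without replicate 2 and 2 without replicate 3 of the 72 h group). In 1.5 mM gels (22 called), the numbers were 5 and 4 by limma on FPKM with pseudocounts of 1 and 0.1, 6 with all 12 libraries in a single fit, 3 at an adjusted p below 0.01 (Atp5g1, Ndufa11 and Ndufa5), 0 under the fold rule of the study and 3 to 32 with 1 library left out. Across both gels (23 called), they were 13 and 12 by limma on FPKM, 3 at an adjusted p below 0.01, 0 under the fold rule and 8 to 40 with 1 library left out (9 without replicate 1, 40 without replicate 2 and 13 without replicate 3 of the 72 h, 1.0 mM group, 9 without replicate 2 of the 96 h, 1.0 mM group, 13 and 10 without replicates 1 and 3 of the 72 h, 1.5 mM group, and 9 and 8 without replicates 2 and 3 of the 96 h, 1.5 mM group). Without both libraries rich in CT010467.1, an alternative added after seeing the data, 16 were called in 1.5 mM gels and 5 across both gels. Over all genes, the main fits called 1457 in 1.0 mM gels, 3033 in 1.5 mM gels and 5092 across both gels. By limma on FPKM with pseudocounts of 1 and 0.1 these were 276 and 224, 596 and 482, and 3639 and 3553. The fit of all 12 libraries called 1806 in 1.0 mM and 2770 in 1.5 mM gels. With 1 library left out the ranges were 731 to 1680, 1181 to 4102 and 3944 to 5671. In 1.0 mM gels DESeq2 called 1711 genes, the fit without a low-count filter 2283 and the fit with the stricter filter 1291. Between gels at 72 h, the fit without a low-count filter called 322 of 28603 genes, among them 1 member (Cox6a2). The cause of these shifts was not tested, except that leaving out libraries also removes replicates and a lower threshold calls fewer by construction. Of 3272 values of 24 named members under alternatives, 3166 kept their side of the threshold, 60 newly passed it, 38 no longer did and 8, all uncalled values of Cox6a2, changed in size beyond the spread between replicates, and 227 uncalled values changed sign. The other scalings moved the median of all genes by less than 0.1. In 1.5 mM gels upper quartile scaling moved it from -0.005 to -0.032. The calls over all genes there went from 1624 higher and 1409 lower to 1351 higher and 1714 lower. The median of the members went from -0.17 to -0.19. Low counts kept 7 members out of every main fit. Without a low-count filter, 84 members were tested in 1.0 mM gels and 83 in 1.5 mM gels.

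Replicate numbers were not taken as pairing in the main fits. Deviations of same-numbered libraries correlated at 0.0365 to 0.313 (mean 0.16, 13 of 18 pairs over 0.1). Those of differently numbered libraries correlated at -0.262 to 0.111 (mean -0.0798, 1 of 36 pairs over 0.1). Deviations were taken from group means and so sum to 0 within a group. A positive mean for same-numbered pairs thus brings a negative mean for the others, which is no separate result. In each pairwise comparison 2 of 3 same-numbered pairs were over 0.1. All 12 libraries had a higher mean correlation with their own number, which follows in the same way from the positive same-numbered values. Of the 12, 9 correlated best with their own number in every other group. Libraries of a number thus shared part of their spread, which the main fits left in. With a replicate block, 5 members were called in 1.0 mM gels (2 higher, 3 lower), 26 in 1.5 mM gels, 38 across both gels (4 higher, 34 lower) and 0 between gels or for the interaction. The block also raised the calls over all genes, to 2122 from 1457 in 1.0 mM gels, to 3885 from 3033 in 1.5 mM gels and to 5955 from 5092 across both gels.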
